A study of Mus musculus with 3 samples.

Results

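Domains of the mouse limb bud genome that were medium in length and strongly one-sided in their contacts are described here. They were chosen from a deposited table of chromatin domains by a rule with a pair of conditions. The domain had to be longer than 250 kb and at most 1000 kb, and its deposited imbalance score had to be finite and 0.9 or more. On the 25 kb grid of the table the shortest length that qualifies is 275 kb. The rule took 331 of the 4124 domains in the table (8.03%, 95% Wilson interval 7.24 to 8.90%), which is 11.0% (9.95 to 12.2%) of the 3003 domains in that length range with a finite score. They are set against the other 2672 domains of the same length range, whose imbalance was below 0.9, and against the 778 of those that the authors placed in class 1. Class 1 holds the domains with a random forest probability of 0.5 or more and is taken here as the class with a stripe.

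The table comes from Hi-C, an assay that ligates neighbouring pieces of crosslinked chromatin and sequences the junctions, on limb buds pooled from wild-type mouse embryos at stage E11.5, forelimbs and hindlimbs together. All 3 libraries form 1 group and were technical replicates from a single pool, counted as 8 embryos in the protocol text and as 10 in the design text. The tissue label names limb bud while the cell type label names G4 embryonic stem cells, and the table holds no expression value against which either could be checked. A limb bud pool mixes fore- and hindlimb and all their cell types, so each score averages over them.

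Chromosomes fold into domains whose sequence contacts itself more than it contacts the neighbouring sequence. An architectural stripe is a line of raised contact that runs from an anchor at one edge of a domain across its whole width, and it makes the contacts of the domain one-sided. Stripes are commonly described as the trace of the ring complex cohesin extruding chromatin while it is held at one end, often at sites bound by the insulator protein CTCF. In the limb bud, some chromatin domains hold genes together with the distant enhancers that drive skeletal patterning. No gene or enhancer was assigned to the domains described here.

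The scores are the authors' own, 1 value per domain in a single table for the whole series, and the sources used here do not state whether the libraries were pooled before domains were called. How the scores were computed is not stated there either. There is thus no error between libraries, the number of contacts behind a score is unknown, and no test over samples can be made. Intervals below are 95% intervals over the domains of this table, Wilson intervals for shares and order-statistic intervals for medians. They do not measure how a value would vary between libraries or embryos. Direction is TRUE or FALSE in the table, and which side of a domain each names is not stated either.

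The members' imbalance scores, which chose them, ran from the threshold up to 3.06 with a median of 1.12 (quartiles 0.990 and 1.32, n = 331). The comparison domains had a median of 0.289 (quartiles 0.137 and 0.499, n = 2672). Most members lay close to the threshold, with 94 below 1.0, 107 from 1.0 to 1.2 and 82 from 1.2 to 1.5. There were 41 members from 1.5 to 2.0 and 7 of 2.0 or more. The threshold cut through a continuous range of scores. Just inside it, in build mm9, were chr9:36500001-37150000 with an imbalance of just over 0.9, chr1:152250001-152875000, chr1:45850001-46150000 and chr4:107975001-108300000 with 0.901 each, and chr4:32675001-33125000 with 0.903. Just outside were chr12:4600001-5050000 (0.899), chr14:103400001-103950000 (0.898), chr7:75500001-76100000 (0.897), chr12:79975001-80400000 (0.896) and chr7:151675001-152100000 (0.896). All 10 of these were in class 1, with probabilities of 0.89 to 1.00 on either side of the threshold.

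The most one-sided member lay at chr5:125350001-126000000. Its imbalance was 3.06, its imbalance_diff score of 0.972 was the highest of any member, and its cosine score was only 0.167. Next came a domain of 425 kb at chr6:72850001-73275000 with an imbalance of 2.81, an imbalance_diff of 0.480 and a cosine of 0.467. The third lay at chr2:93850001-94300000 (imbalance 2.43, imbalance_diff 0.399, cosine 0.370). The fourth lay at chr14:58275001-58650000 (2.32, 0.556 and 0.302). The fifth lay at chr10:122225001-122650000 (2.25, 0.904 and 0.541). These 5 were alike in having direction TRUE, a probability of 1.00 and a downstream neighbour longer than the upstream one. Their downstream neighbours measured 1075, 4300, 750, 1125 and 2500 kb in that order, and their upstream neighbours 175, 325, 375, 275 and 250 kb. All 7 members with an imbalance of 2.0 or more had direction TRUE, and the highest imbalance among the FALSE members was 1.94.

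Every member was in class 1 (331 of 331, Wilson interval 98.9 to 100%). The background was 35.1% of all domains with a probability and 36.9% of the domains of the same length range. The imbalance may be one of the inputs to the authors' classifier, so nothing is read from this count. The median probability was 1.00 in members and 0.24 in comparison domains, and 191 members had a probability of 1.00. High imbalance did not always go with a high probability, since 17 members lay below 0.7. The 3 members with the lowest imbalance_diff all had a probability of 0.63. They lay at chr3:19000001-19400000 and chr3:15900001-16175000, and at chr6:90250001-90550000. Their imbalance_diff scores were 0.157, 0.158 and 0.166. The first of them ranked last in imbalance_diff although its imbalance was above the member median, while the others had imbalance scores of 0.999 and 0.971.

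The other scores come from the same contact map as the rule and are given as a description. The imbalance_diff score had a median of 0.474 in members (quartiles 0.346 and 0.580) and 0.127 in comparison domains (0.0587 and 0.221), a difference of 0.347 (0.315 to 0.366). No member lay below the comparison median and 47 lay above the comparison maximum of 0.656. The cosine score had a median of 0.519 in members (quartiles 0.390 and 0.612) and 0.685 in comparison domains (0.537 and 0.790), a difference of -0.166 (-0.202 to -0.144). Members had the higher median imbalance_diff and the lower median cosine on 19 of 19 chromosomes. Members were cut on imbalance, which imbalance_diff followed closely among comparison domains (Spearman rank correlation 0.894). The count for imbalance_diff thus adds no support of its own. Against the comparison domains of class 1 alone, both differences were smaller, 0.205 (0.172 to 0.224) for imbalance_diff and -0.106 (-0.145 to -0.0801) for cosine.

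**Figure D1:**
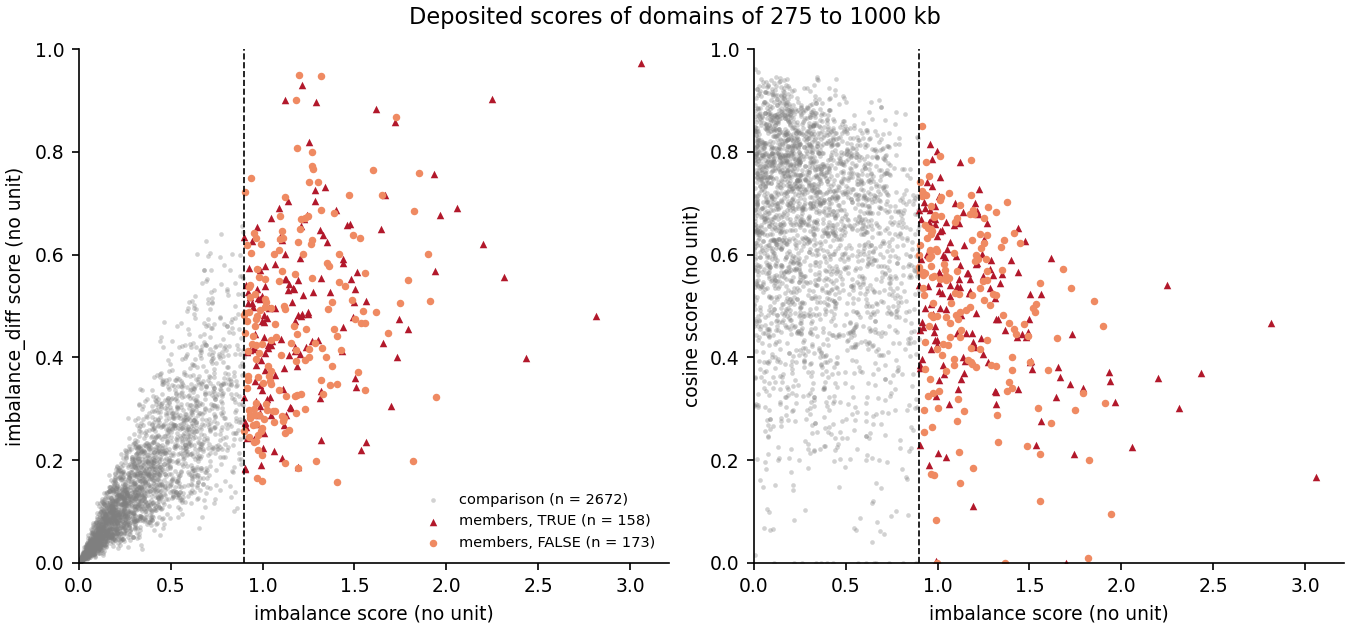
Deposited imbalance_diff score (left) and cosine score (right) against the imbalance score, all without unit, with 1 point per domain of 275 to 1000 kb: 2672 comparison domains in grey, 158 TRUE members as triangles and 173 FALSE members as circles. The dashed line is the threshold of 0.9. The grey points follow imbalance closely in imbalance_diff while the members fan out, and cosine falls toward the highest imbalance.

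The rank correlations between the scores were computed separately above and below the threshold, in groups cut on imbalance itself. Among comparison domains imbalance_diff followed imbalance closely (Spearman 0.894, n = 2672 domains), whereas among members the relation was loose (0.326, n = 331). Cosine went the other way, falling with imbalance in members (-0.328) and more weakly in comparison domains (-0.203). Within members, imbalance_diff and cosine rose together (0.463, against 0.145 in comparison domains). Length was almost unrelated to imbalance in members (0.0705) and in comparison domains (-0.0392). These correlations run across domains of 1 table that share the same contact map, and the members span a chosen part of the imbalance range. Cutting that range can by itself change such coefficients, so no difference in how the scores are related is read from them.

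Cosine varied widely among members, from 0 to 0.850, with 15 members below 0.2 and 28 at 0.7 or more. The highest value belonged to a FALSE domain at chr9:58775001-59150000 (imbalance 0.914). It was followed by TRUE domains at chr1:155325001-155675000 (cosine 0.816) and at chr11:118850001-119150000 (0.802). All 3 had modest probabilities for a member, 0.74, 0.71 and 0.75. At the other end, 3 members had a cosine of exactly 0. They lay at chr4:146525001-147025000, at chr7:20350001-20675000 and at chr12:19550001-20000000. Each of these 3 bordered a long gap in the table, of 750 kb upstream, 1175 kb downstream and 325 kb upstream in that order. The last one also had a gap of 50 kb on its other side, followed by a neighbour of 50 kb with an imbalance of 4.77. The part of these gaps in the zero score was not tested.

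Members had the same median length as the other domains of their range. The median length was 425 kb in members (quartiles 350 and 550) and in comparison domains (350 and 575), a difference of 0 kb (-25 to 25). The mean was 461 kb in members (SD 150.0) and 477 kb in comparison domains (SD 176), a difference of -15.8 kb (-33.3 to 1.67). Measured between the tuned edges, the medians were also equal, at 360 kb, while the mean was shorter in members, at 393 against 414 kb, a difference of -21.7 kb (-39.4 to -3.91). The share of domains with imbalance of 0.9 or more was 10.8% at 275 to 350 kb, 12.3% at 375 to 450 kb, 11.3% at 475 to 600 kb and 11.4% at 625 to 800 kb. It was 5.10% (10 of 196, interval 2.79 to 9.14%) at 825 to 1000 kb, close to the 4.44% (16 of 360, interval 2.75 to 7.10%) of domains above 1000 kb. Domains of up to 250 kb had a share of 10.0% (76 of 759), like the shorter members' range. The longest member filled its range, at 1000 kb at chr7:118175001-119175000 (imbalance 0.959, FALSE). Of the next 4, at 925, 925, 925 and 900 kb, the first 3 were on chromosome 12, at chr12:13225001-14150000 (imbalance 1.11), chr12:27100001-28025000 (1.27) and chr12:114425001-115350000 (0.913). The last was at chr5:128050001-128950000 (1.13), level in length with a member of 900 kb at chr10:50300001-51200000 (1.00).

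Members occurred on all 19 chromosomes of the table. Chromosome 19 had the highest share, with 17 of its 80 medium-length domains (21.3%, interval 13.7 to 31.4%). Chromosome 17 had the lowest, with 6 of 110 (5.45%, 2.52 to 11.4%). Chromosome 13 was nearly as low, with 10 of 163 (6.13%, 3.37 to 10.9%), and chromosomes 5 and 11 stood at 14.8% each. The share on chromosome 19 exceeded that of the other 18 chromosomes together (10.7%) by 10.5 percentage points (2.88 to 20.7). It was singled out as the highest of 19 shares, and its interval overlapped those of 13 of the 18 other chromosomes. By distance, chromosome 19 held 2.92 members per 10 Mb and chromosome 17 held 0.652.

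**Figure D2:**
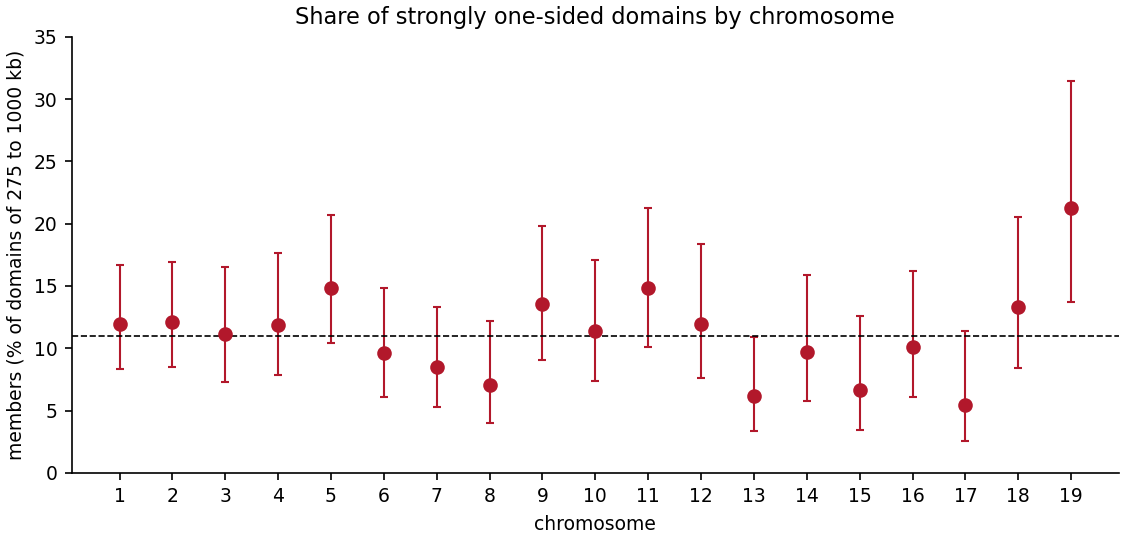
Share of the medium-length domains of each chromosome that were members, in percent, with 95% Wilson intervals over domains. The dashed line is the share over all chromosomes, 11.0%. Chromosome 19 at 21.3% stands highest and chromosome 17 at 5.45% lowest.

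Along the chromosomes, members of the whole length range were spread much like other domains. Those above 500 kb had a median position further along than their comparison domains, a value singled out among many other settings and given in the last section. Position was scaled from 0 at the first domain edge of a chromosome to 1 at the last. The median position was 0.527 in members and 0.511 in comparison domains, a difference of 0.0158 (-0.0449 to 0.0787). In 5 equal stretches of each chromosome, members made up 9.32, 11.2, 11.8, 12.4 and 10.4% of medium-length domains, with intervals that all overlapped. Within 5 Mb of the first or last domain edge lay 7.25% of members (24 of 331) and 8.42% of comparison domains.

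The directions were about balanced, with 158 TRUE and 173 FALSE members (47.7% TRUE, interval 42.4 to 53.1%). Comparison domains were 49.0% TRUE, and the difference of -1.29 percentage points (-6.94 to 4.41) spanned 0. TRUE and FALSE members had a like median length of 425 kb. Their median cosine scores were 0.521 and 0.511, a difference of 0.00982 (-0.0566 to 0.0447), and their median imbalance_diff scores were 0.484 and 0.456. Chromosome 19 had 4 TRUE and 13 FALSE members, chromosome 3 had 4 and 16 and chromosome 16 had 3 and 11. Chromosome 12 had 12 and 5 and chromosome 15 had 6 and 2. These were picked as uneven from the small counts of 19 chromosomes, and a difference between chromosomes was not tested.

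The table gives each domain a second pair of edges, called tuned, on a finer grid of 10 kb. In TRUE members the tuned start lay a median of 30 kb inside the domain (quartiles 15 and 45, n = 158) and the tuned end 45 kb (35 and 55). In FALSE members the order was the mirror image, with 45 kb at the start (quartiles 30 and 60, n = 173) and 30 kb at the end (15 and 40). Comparison domains showed a weaker form of the same asymmetry, with 30 and 40 kb in TRUE and 35 and 30 kb in FALSE domains. Start shift minus end shift had a median of -10 kb in TRUE and 10 kb in FALSE members, a difference of -20 kb (-31.2 to -15). In comparison domains it was -10 kb (-15 to -10). The members' difference was larger by -10 kb (-21.2 to -2.93) in medians and by -16.2 kb (-23.3 to -9.02) in means. Against class 1 comparison domains the excess was -5 kb (-17.2 to 3.66) in medians, an interval that spans 0, and -12.4 kb (-20.4 to -4.32) in means. Few tuned edges lay outside the domain, 21 starts and 16 ends among the 331 members.

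The asymmetry of the tuned edges also varied with the score within the length range. The mean difference between TRUE and FALSE domains was -5.81 kb at imbalance below 0.2, -10.5 kb from 0.2 to 0.4, -12.0 kb from 0.4 to 0.6 and -14.4 kb from 0.6 to 0.9. It was -26.3 kb from 0.9 to 1.1, -25.7 kb from 1.1 to 1.4 and -26.0 kb at 1.4 or more. The medians gave another shape, with differences of -5, -15, -15 and -20 kb below the threshold and -20, -22.5 and -30 kb above it, and the intervals of neighbouring groups overlapped. In both forms the difference was larger in members than at imbalance below 0.2. Across the threshold the means went from -14.4 to -26.3 kb while the medians stayed at -20 kb. No interval was made for the means of these groups, so a step at the threshold is not shown. TRUE members had the lower mean on 17 of 19 chromosomes. The tuning may have used the contacts from which the imbalance was computed, so this is not shown to be independent of the rule.

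**Figure D3:**
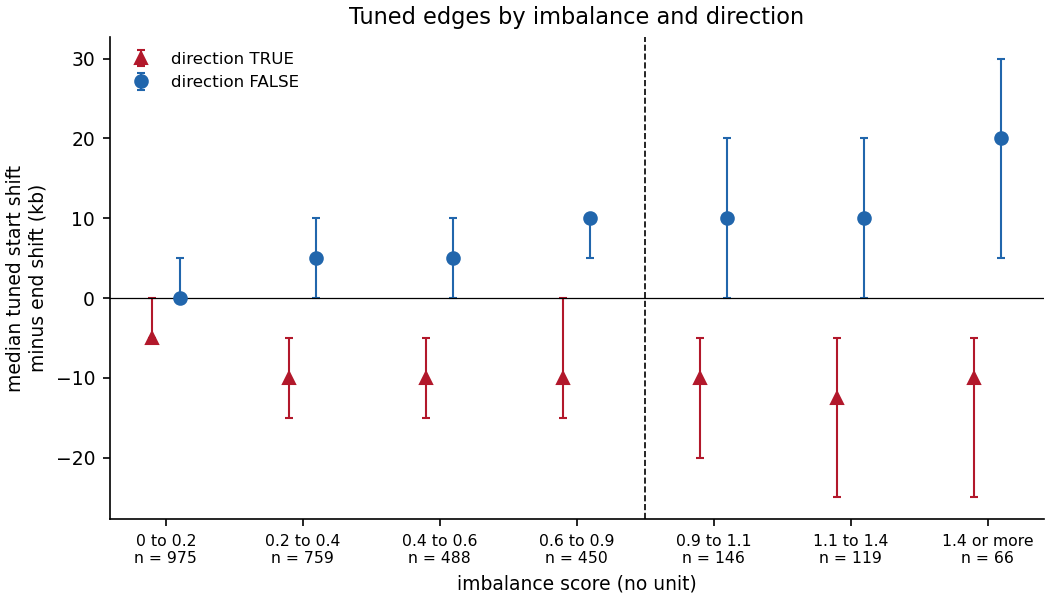
Median tuned start shift minus tuned end shift, in kb, for TRUE (triangles) and FALSE (circles) domains of 275 to 1000 kb in 7 groups of imbalance score, with 95% order-statistic intervals over domains. The dashed line separates comparison domains (left) from members (right). TRUE domains lie at or below -5 kb in every group, and FALSE domains rise from 0 to 20 kb.

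Because TRUE and FALSE mirrored each other, domains were also turned by their label. Side A is the end of a TRUE and the start of a FALSE domain, and side B is the opposite one. These turned sides were defined after the values had been seen. The tuned edge lay deeper on side A in 217 of 331 members (65.6%, interval 60.3 to 70.5%) and deeper on side B in 89, with 25 equal. In comparison domains side A was deeper in 53.6%, a difference of 11.9 percentage points (6.33 to 17.2). In class 1 comparison domains it was deeper in 56.7%, a difference of 8.88 points (2.58 to 14.9). Among domains that shared both boundaries the share was 62.8% in members, a difference of 9.20 points (1.61 to 16.3) from comparison domains. Against class 1 that difference, 8.10 points (-0.406 to 16.2), spanned 0. The median shift on side A of members was 45 kb at a shared boundary (n = 252) and 50 kb beside a gap (n = 79). On side B it was 30 kb at a shared boundary (n = 239) and 27.5 kb beside a gap (n = 92). The depth of a member's tuned edge thus differed by side and hardly by whether the boundary was shared.

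The neighbours of members differed in length from one side to the other. TRUE members had a median upstream neighbour of 375 kb (quartiles 275 and 575) and a downstream neighbour of 450 kb (325 and 775). FALSE members had an upstream neighbour of 425 kb (325 and 650) and a downstream neighbour of 350 kb (275 and 500). The median downstream minus upstream length was 62.5 kb in TRUE and -100 kb in FALSE members, a difference of 162.5 kb (64.9 to 230). In comparison domains the difference was 50 kb (14.6 to 85.4), so that members exceeded them by 112.5 kb (8.67 to 189). In means the members' difference was 199 kb (37.9 to 360), and its excess over comparison domains, 124 kb (-44.3 to 292), spanned 0. Against class 1 comparison domains the excess spanned 0 both in medians, 112.5 kb (-8.05 to 189), and in means, 89.4 kb (-94.3 to 273). The median excess over all comparison domains also spanned 0 with any of 6 of the 19 chromosomes left out. The means had the members' sign on 13 of 19 chromosomes. Most of the members' difference lay downstream, where the medians differed by 100 kb (64.6 to 179), against -50 kb (-85.4 to 20.7) upstream.

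Turned by label, the longer neighbour lay on side A in 196 of 331 members (59.2%, interval 53.8 to 64.4%) and on side B in 124. The share was 51.8% in comparison domains, a difference of 7.39 points (1.69 to 12.9). It was 53.2% in class 1 comparison domains, where the difference of 5.98 points (-0.431 to 12.2) spanned 0. Among domains that shared both boundaries the share was 57.4% in members and 53.0% in comparison domains, and the difference of 4.42 points (-3.22 to 11.8) spanned 0 as well. Neighbours above 1000 kb stood on side A of 41 members (12.4%, against 9.01% of comparison domains) and on side B of 26 (7.85%, against 7.70%). The side A difference was 3.38 points (0.0540 to 7.50), and against class 1 it was 2.48 points (-1.40 to 6.90). Neighbours of up to 250 kb stood on side A of 51 members and on side B of 78, which is 15.4% and 23.6%. For side B the comparison share was 18.1%, a difference of 5.47 points (0.960 to 10.5), and for side A it was 15.5%. Against class 1 comparison domains the side B difference of 2.22 points (-3.00 to 7.80) spanned 0. By imbalance, the median neighbour on side A rose from 400 kb in members below 1.0 through 425, 450 and 525 kb to 1125 kb in the 7 members of 2.0 or more, while on side B it stayed between 325 and 375 kb. The highest group holds TRUE members alone. In wider groups, the neighbour difference between TRUE and FALSE members was 125 kb (18.9 to 196) from 0.9 to 1.1, 100 kb (-45.8 to 246) from 1.1 to 1.4 and 275 kb (51.4 to 720) at 1.4 or more, with intervals that overlapped. Side A held the deeper tuned edge in 138 of the 196 members with the longer neighbour there (70.4%, interval 63.7 to 76.4%) and in 70 of the 124 with the longer neighbour on side B (56.5%, 47.7 to 64.9%). Those intervals overlapped, and the difference between them was not tested. The same shares were 56.0% and 51.6% in comparison domains and 58.6% and 53.8% in class 1 comparison domains.

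**Figure D4:**
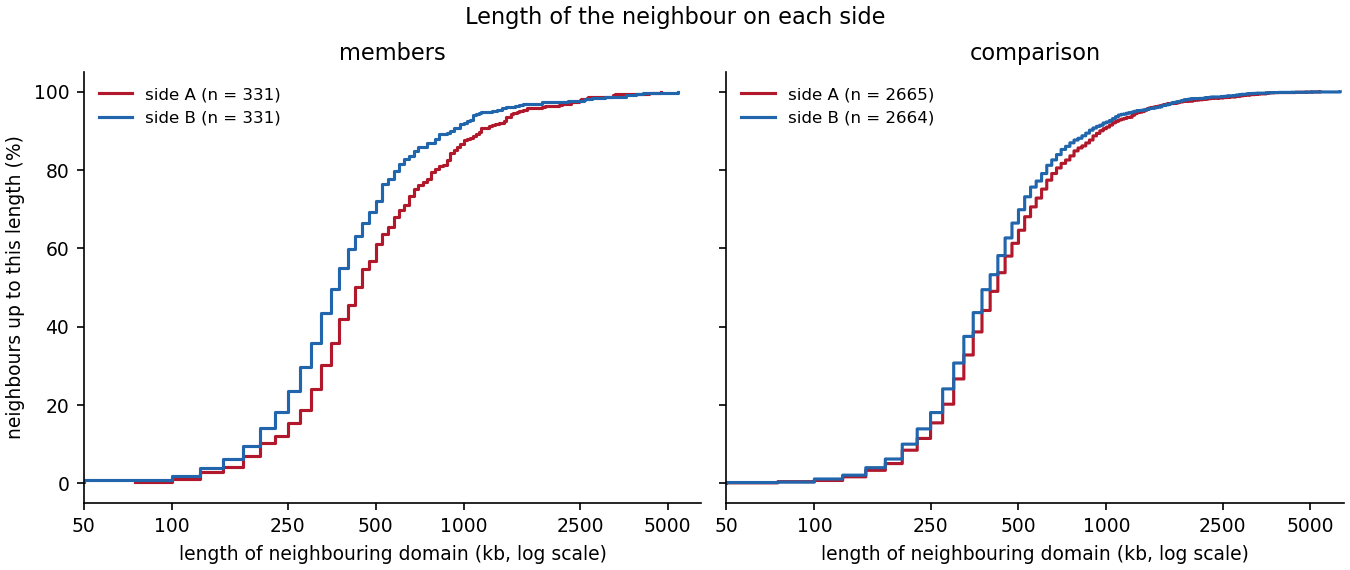
Cumulative share of neighbouring domains, in percent, by their length in kb on a log axis, for members (left) and comparison domains (right), with side A in red and side B in blue. In members the side A curve runs to the right of side B over most of the range, with medians of 425 and 375 kb, and in comparison domains the curves lie closer together, with medians of 425 and 400 kb.

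Gaps of unassigned sequence bordered 148 of the 331 members on at least 1 side (44.7%, interval 39.4 to 50.1%) and 1043 of the 2672 comparison domains (39.0%, 37.2 to 40.9%). The difference of 5.68 points (0.0931 to 11.4) barely left out 0 and spanned it with any of 9 of the 19 chromosomes left out, with values of 4.24 to 7.09 points over all 19. It also spanned 0 at thresholds of 0.8 (4.04 points, -0.941 to 9.12) and 1.0 (3.21 points, -3.19 to 9.82), and for gaps of at least 50 kb (4.16 points, -1.37 to 9.84). The members' share was the higher one on 12 of 19 chromosomes. Against class 1 comparison domains, at 41.5%, the difference of 3.20 points (-3.12 to 9.57) spanned 0. By imbalance the share was 49.3% from 0.9 to 1.1 (n = 146), 41.2% from 1.1 to 1.4 (n = 119) and 40.9% at 1.4 or more (n = 66), so it did not rise with the score among members. The members' median gap was 150 kb (quartiles 75 and 200, 171 gaps) and that of comparison domains 125 kb (75 and 200, 1212 gaps).

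By turned side, the excess of gaps over comparison domains stood on side B, although the members' own intervals for both sides overlapped and their difference was not tested. Side B bordered a gap in 92 members (27.8%, interval 23.2 to 32.9%) against 21.8% of comparison domains, a difference of 5.99 points (1.16 to 11.3). Side A bordered one in 79 members (23.9%, interval 19.6 to 28.7%) against 23.7%, a difference of 0.190 points (-4.39 to 5.31). In FALSE members side B is the downstream side, where 49 of 173 (28.3%) met a gap, against 20.6% of FALSE comparison domains, a difference of 7.69 points (1.12 to 15.1). In TRUE members it is the upstream side, with 43 of 158 (27.2%) against 22.9%, a difference of 4.31 points (-2.45 to 12.1) that spanned 0. Against class 1 comparison domains the side B difference, 4.38 points (-1.13 to 10.2), spanned 0. Gaps on both sides isolated 23 members (6.95%), close to the 6.32% of comparison domains. Of the members isolated in this way, those with the longest gaps lay at chr16:17000001-17350000 (125 kb upstream and 700 kb downstream), at chr5:113700001-114175000 (175 and 600 kb) and at chr6:34425001-34975000 (200 and 350 kb). The chromosome 5 domain also had the second highest imbalance_diff of all members, 0.949.

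**Figure D5:**
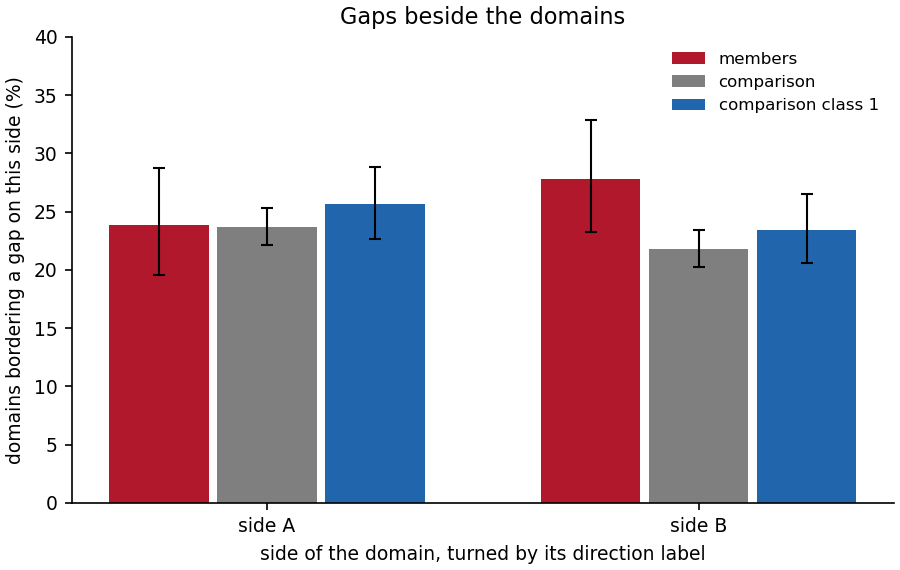
Share of domains that bordered a gap on side A and on side B, in percent, for members (red), comparison domains (grey) and comparison domains of class 1 (blue), with 95% Wilson intervals over domains. Members and comparison domains stand level on side A at 23.9% and 23.7%, and on side B they stand at 27.8% and 21.8%.

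Over both sides the imbalance of the neighbours was close to that around other domains. The median was 0.318 for the neighbours of members (quartiles 0.139 and 0.619, n = 662) and 0.304 for those of comparison domains (0.139 and 0.564, n = 5329), a difference of 0.0141 (-0.0204 to 0.0560). A neighbour of any length reached 0.9 in 10.7% of members' sides (71 of 662, interval 8.59 to 13.3%) and in 9.44% of comparison sides. By direction and side, the members' share was highest downstream of FALSE members, which were singled out for it. Downstream of FALSE members 27 of 173 neighbours reached 0.9 (15.6%), against 9.79% downstream of FALSE comparison domains, a difference of 5.81 points (0.860 to 12.1), and 6.08 points (0.391 to 12.7) against class 1. Downstream of TRUE members 11 of 158 did (6.96%), against 9.20%. The mean imbalance of all downstream neighbours was 0.461 in members and 0.396 in comparison domains, a difference of 0.0645 (0.0134 to 0.116). The medians differed by 0.0572 (-0.00267 to 0.107), and against class 1 the mean difference, 0.0547 (-0.00112 to 0.110), spanned 0. Class 1 neighbours made up 37.5% (33.9 to 41.2%) and 33.4% (32.1 to 34.6%). The class 1 share was highest downstream of FALSE members, at 42.2% (73 of 173) against 32.2% downstream of FALSE comparison domains, a difference of 10.0 points (2.47 to 17.9). Upstream of FALSE members it was 35.3% (61 of 173) against 33.0%. On side B of all members it was 38.7% against 33.6%, a difference of 5.07 points (-0.328 to 10.7) that spanned 0. Neighbours had the member's own direction in 46.4% of cases (42.6 to 50.2%), against 48.8% (47.4 to 50.1%) around comparison domains.

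The share of members among the neighbours of members was close to their share of all medium-length domains, 11.0% (331 of 3003). Of the members' medium-length neighbours with a shared boundary, 11.1% were members too (40 of 359, interval 8.29 to 14.8%). Each touching pair of members counts from both sides here, so this interval, which takes the 40 as independent, is too narrow. For comparison domains the same share was 10.2% (319 of 3133, 9.17 to 11.3%). For class 1 comparison domains it was 12.5% (108 of 867, 10.4 to 14.8%). The 331 members formed 293 singles, 16 runs of 2 and 2 runs of 3 with shared boundaries. These runs held 20 neighbouring pairs, of which 8 ran FALSE then TRUE along the chromosome, 6 TRUE then FALSE, 5 FALSE then FALSE and 1 TRUE then TRUE. Allowing a gap between members gave 26 pairs, 20 runs of 2 and 3 runs of 3.

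The runs of 3 with shared boundaries were unlike in direction. The run at chr5:128050001-129525000 was FALSE throughout, with domains of 900, 300 and 275 kb and imbalance scores of 1.13, 1.25 and 0.923. The run at chr7:19575001-20675000 went from FALSE to TRUE and TRUE, with domains of 400, 375 and 325 kb and scores of 1.35, 0.996 and 1.70. Its last domain is one of the 3 members with a cosine of 0. Chromosome 19 held a pair at chr19:6925001-7575000 with scores of 1.90 and 1.24 and another at chr19:34100001-35075000 with 1.55 and 1.32, and both ran FALSE then TRUE. Runs of the mirrored order, TRUE then FALSE, included chromosome 2 from 169925001 to 170700000 (1.35 and 1.25) and chromosome 3 from 107000001 to 107725000 (1.18 and 1.20). On chromosome 5 there were 3 more pairs, each FALSE then TRUE, at chr5:20300001-21250000, chr5:67700001-68525000 and chr5:109175001-110725000. This chromosome held 9 of the 38 members that touched another and 27 of all 331 members. It was singled out from the runs, and a difference between chromosomes was not tested. Of the other 9 pairs, those at chr12:27100001-28325000 and chr14:78925001-79800000 also ran FALSE then TRUE. Those at chr1:151650001-152875000, chr4:122200001-122825000, chr9:96775001-97950000 and chr10:39250001-39975000 ran TRUE then FALSE. Those at chr1:87675001-88250000, chr7:118175001-119525000 and chr9:36500001-37475000 were FALSE in both domains.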

How the data were processed

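One deposited table was used, with no value per library. Whether the 3 libraries were pooled for it is not stated. The submitters' processing notes name Juicer, BWA and build mm9, with no role or version. The deposited table's name points to TopDom domains, a quantile threshold of 0.98 and a random forest threshold of 0.5. Imbalance, imbalance_diff and cosine are deposited scores of unstated construction. Probability is a deposited fraction in steps of 0.01. Starts are written counting from 1.

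Members, lists and comparisons were chosen with earlier results of these data known. The regions named are those of highest imbalance (5), nearest the threshold (5 inside, 5 outside), longest (5), of extreme cosine and imbalance_diff (3 each), most isolated (3) and in runs. Chromosome 18 was counted and not named. A gap is any distance between consecutive domains. Neighbours are the nearest domains whatever the gap. Differences carry 95% intervals combined from those of both groups. Their coverage was checked only on simulated independent draws, without the grid ties and shared neighbours of the real domains. No test was made, since domains of 1 table are not replicates. Of 2 domains with infinite imbalance, none was used as a member. The gene and promoter tables at hand belong to another build, so no gene was assigned and no sequence read. Python 3.11.15, pandas 2.3.3 and scipy 1.17.1 were used.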

Additional observations from a re-analysis of the deposited data

How the results depend on the processing

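The table gives no value per library, so no library could be left out. No paired analysis was possible because the only group has a single table without values per library. Of 136 values under other settings, 118 stayed within the interval of the reported value (counts within 1.5 times) and 18 left it; the turned sides and their settings were chosen after seeing the data. All 398 values with 1 chromosome left out stayed within. Each of these settings kept 303 to 325 members, so the values had little room to leave the intervals. Nothing is read from that count. Staying within does not mean that an interval kept clear of 0. Above 500 kb, intervals came to span 0 for the members' neighbour difference (75 kb, -84.1 to 249), for the deeper tuned edge on side A (9.91 points, -0.295 to 19.2) and for the excess over comparison domains in tuned shift, neighbour difference, longer neighbour on side A and gaps. The excess on chromosome 19 did so at lengths up to 500 kb (8.20 points, -0.0918 to 20.3). The neighbour excess did so at a threshold of 0.8 (75 kb, -21.8 to 141) and at shared boundaries alone (75 kb, -54.9 to 190), where the members' own difference was 125 kb (0 to 237).

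Thresholds of 0.8 and 1.0 took 14.3 and 7.89% of the length range as members, with 36 and 10 neighbouring pairs and class 1 differences of 73.6 and 68.5 points. The threshold of 0.8 gave an imbalance_diff difference of 0.313. Tuned lengths left 9 pairs and lengths up to 500 kb left 11. Above 500 kb there were 102 members and 2 pairs, an imbalance_diff difference of 0.381 and a class 1 difference of 73.5 points. The position difference there was 0.134 (0.0172 to 0.222), which left out 0, unlike that of the whole length range. It was singled out among the values under other settings. Against class 1 comparison domains the differences were 0.205 in imbalance_diff, -0.106 in cosine, 0.215 in probability and, by construction, 0 points in class 1. Fewer members and pairs follow from the narrower settings themselves.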
